A study of Homo sapiens with 28 samples.

Results

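The protein subunits of RNase P and RNase MRP were followed through 10 genes chosen by name: POP1, POP4, POP5, POP7, RPP14, RPP21, RPP25, RPP30, RPP38 and RPP40. They are 10 of the 19050 genes named in a pooled knockout screen and 10 of the 25807 symbols in an RNA-seq table. In the screen they were the targets of 58 of 109367 guide RNAs, 5 each for POP1 and POP4 and 6 for each of the others. All 10 had enough guides to be tested, and all 10 transcripts passed the filter on low counts. The group was taken up because guides against POP5 were already known to have moved in p53 KO cells, both during growth without drug and under etoposide. Values that involve p53 KO screen libraries are therefore given as a description: no p-value is printed for them, and where the number of members past the threshold of the fit is given with the share over all genes, nothing is read from it. In contrast, the p53 WT screen libraries and the RNA libraries, which that choice did not use, were tested. Guide changes in p53 KO and p53 WT cells were correlated, however. Values of POP5 in p53 WT screen libraries, and counts that include POP5, are therefore not fully independent of the choice.

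U2OS is a human osteosarcoma cell line. The screen counted guides in genomic DNA of p53 KO U2OS cells and of U2OS cells with wild-type p53 (p53 WT), each after 96 h in 5 µM etoposide, after 96 h in DMSO and at the start (T0), with 3 libraries (A, B and C) in each of the 6 groups. Etoposide traps topoisomerase II on broken DNA; DMSO is its solvent, and the titles call the DMSO libraries untreated. The RNA came from p53 WT U2OS recipients that spent 8 h in medium conditioned by p53 KO or p53 WT donors, themselves given 31.6 µM etoposide or DMSO, or that were taken at T0, with 2 libraries (A and B) in each of the 5 groups. Whether the p53 KO line is 1 clone, and whether libraries of a group were separate cultures, is not given in the sources used here, so p-values measure only the spread between these samples.

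RNase P is the ribonucleoprotein that cuts the 5′ leader from precursor tRNAs in the nucleus, and RNase MRP is its relative that cuts precursor ribosomal RNA in the first internal transcribed spacer. Each is built on an RNA of its own, RPPH1 or RMRP, and the pair share most of their proteins. POP1 is the large scaffold. POP7 and RPP25 form a dimer on the RNA, POP5, RPP14, RPP30 and RPP40 form another module, and POP4, RPP21 and RPP38 a further one. In a knockout screen, a guide becomes rarer when the cells that carry it divide less or die more than the others.

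Screen libraries held 30437296 to 48230735 counts, and member guides had 41 to 1170 raw counts in a library. RNA libraries held 16825669 to 20290764 counts. Of the osteoblast markers in RNA, given as counts scaled by library size (CPM), COL1A1 stood at 7030 to 10136 CPM, RUNX2 at 10.5 to 55.8 CPM, ALPL at 20.8 to 81.6 CPM and SPP1 at 1.87 to 6.23 CPM, whereas SP7, BGLAP and IBSP were at or near 0. The leukocyte marker PTPRC reached at most 1.40 CPM, the endothelial marker PECAM1 0.103 CPM and the epithelial marker EPCAM 2.74 CPM.

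The first comparison asked which members' guides became rarer in p53 WT cells between T0 and 96 h in DMSO. Loss before T0 is not seen in it, so a gene that was not called may still be needed. Guides against POP5, RPP21, RPP38 and POP7 became rarer, and those against the other 6 genes did not pass the test. These 4 of 10 compare with 5.4% of all 19044 tested genes called lower. The 4 include POP5, and over all guides the growth changes in p53 KO and p53 WT cells had Pearson's r = 0.28. The count is thus not fully independent of the choice. Here and below a gene's value is the log2 fold change of counts summed over its guides ± SE, tested with edgeR's quasi-likelihood test, and the adjusted p is a Benjamini-Hochberg value over all tested genes with a threshold of 0.05. The median over the 10 genes was −0.11, beside 0.0048 over all genes.

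In the module of POP5, guides against POP5 itself summed to 32.7, 35.8 and 30.5 CPM in the p53 WT DMSO libraries, against 44.2, 46.4 and 44.8 CPM at T0. All DMSO libraries lay below all T0 libraries, a change of −0.46 ± 0.06 (adjusted p = 1.92e-09). Guides against RPP14 summed to 41.1, 38.5 and 39.4 CPM in DMSO and 41.8, 45.1 and 43.1 CPM at T0, those against RPP40 to 56.6, 56.3 and 58.3 CPM in DMSO and 61.9, 60.9 and 59.1 CPM at T0. Both pairs of groups were apart by little, and neither change passed the test (RPP14 −0.13 ± 0.06, adjusted p = 0.245, and RPP40 −0.09 ± 0.05, adjusted p = 0.355). With each guide weighted alike, as a mean over guides of log2 CPM tested by limma, RPP14 was called (−0.26, adjusted p = 0.00779). RPP30, whose product sits beside POP5 in the enzyme, had overlapping groups and a summed change of 0.0015 ± 0.04 (adjusted p = 0.991).

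In the module of POP4, RPP21, found in RNase P rather than RNase MRP, had guides at 40.6, 37.6 and 42.7 CPM in DMSO, against 51.8, 50.7 and 53.1 CPM at T0. The groups did not overlap, and the change was −0.36 ± 0.05 (adjusted p = 2.49e-07). RPP38, which binds kink-turns in the RNA, had 42.9, 38.7 and 43.3 CPM in DMSO, against 47.8, 48.3 and 52.5 CPM at T0, again without overlap (−0.25 ± 0.06, adjusted p = 0.000755). POP4 had 34.3, 32.8 and 30.8 CPM in DMSO and 34.4, 32.8 and 35.4 CPM at T0, and its groups overlapped (−0.07 ± 0.06, adjusted p = 0.632).

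In the dimer that binds the RNA, guides against POP7 summed to 36.2, 38.0 and 36.9 CPM in DMSO, against 43.7, 42.0 and 41.3 CPM at T0, with no overlap (−0.19 ± 0.06, adjusted p = 0.0261). The POP7 call was lost without DMSO library A (−0.18, adjusted p = 0.105), DMSO library C (−0.19, 0.0628), T0 library A (−0.17, 0.14) or T0 library B (−0.20, 0.0683). Guides against RPP25 stood at 49.96, 51.5 and 46.1 CPM in DMSO and 50.8, 47.6 and 50.2 CPM at T0, with overlapping groups (−0.01 ± 0.06, adjusted p = 0.951). The scaffold POP1 had 50.6, 54.1 and 52.1 CPM in DMSO, against 56.7, 55.9 and 55.3 CPM at T0; the groups did not overlap, but the change of −0.10 ± 0.05 did not pass the test (adjusted p = 0.282). With the 999 non-targeting guides as the basis of scaling, POP1 (−0.16), RPP14 (−0.19) and RPP40 (−0.15) were also called and the count was 7, while all genes then split into 20 higher and 2942 lower, beside 215 higher and 1029 lower.

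**Figure D1:**
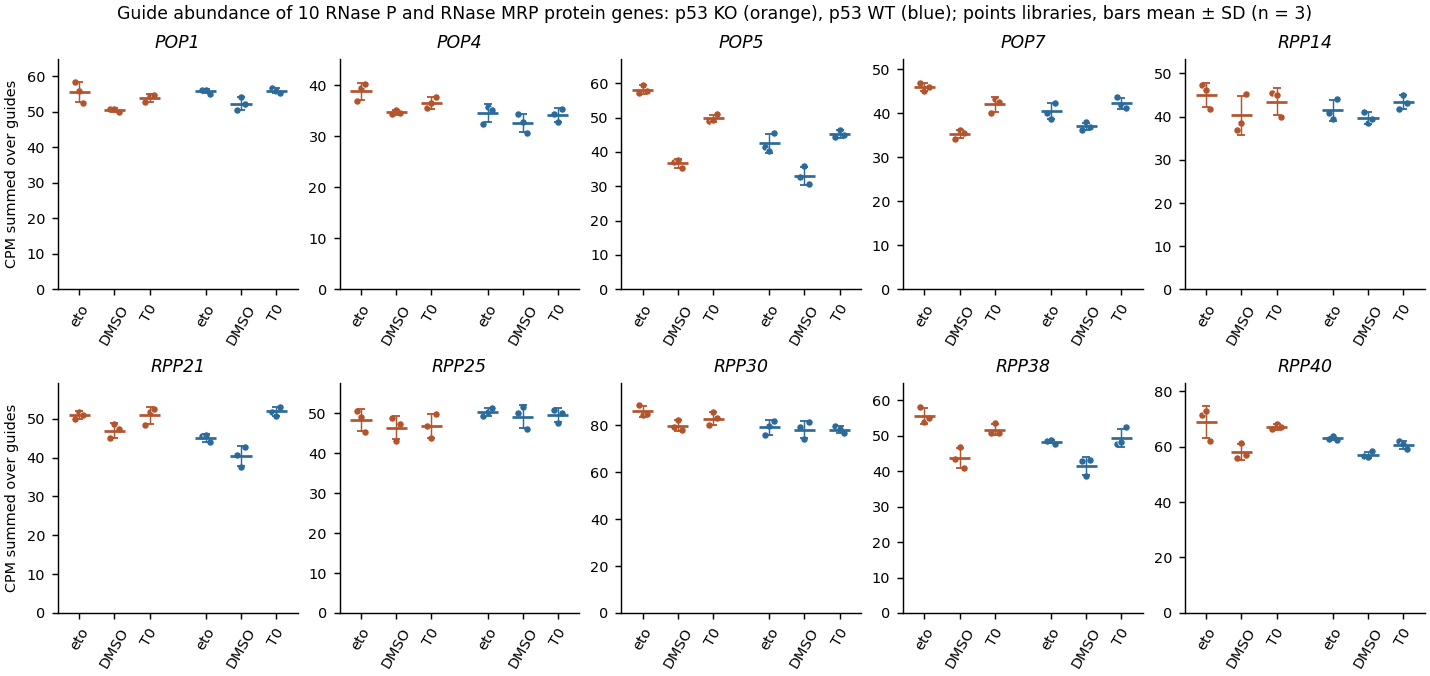
CPM summed over the guides of each member (vertical axis, from 0) in the 18 screen libraries, with etoposide (eto), DMSO and T0 from left to right, p53 KO in orange and p53 WT in blue; points are libraries and bars the mean ± SD (n = 3). The POP1, POP5, POP7, RPP38 and RPP40 panels show the DMSO libraries below both other groups in each genotype, and the RPP25 panel shows overlapping groups throughout.

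Guides of a gene share their target and are not replicates of each other, so they show which guides carry a gene's value. Of the 58 guides, 13 were called lower in p53 WT DMSO libraries against T0 and 0 higher, beside 1.37% of all 109367 guides called lower. In 23 of the 58 all DMSO libraries lay below all T0 libraries, beside 8.98% of all guides. POP5 had 4 called guides of 6, RPP21 had 3, POP7 had 2, and RPP14, RPP30, RPP38 and RPP40 had 1 each. Of the 13 calls, 8 were kept whichever single library was left out, and the count fell to 8 without T0 library C. The 5 others were HGLibA_37693 of POP5, HGLibA_42024 of RPP14, HGLibA_42026 of RPP21, HGLibA_42038 of RPP38 and HGLibA_42040 of RPP40.

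The largest fitted loss among the 58 was that of POP5 guide HGLibB_37644, at 1.70, 1.40 and 1.40 CPM in DMSO, against 3.84, 3.61 and 4.87 CPM at T0 (−1.45 ± 0.21, adjusted p = 1.27e-06). The other called POP5 guides lay between −0.74 and −0.57, and the 6 together had a mean of −0.59 ± 0.53 (SD over guides). POP7 was carried by guides HGLibA_37695 (−1.11 ± 0.18) and HGLibB_37647 (−1.02 ± 0.21), with the other 4 guides between −0.66 and 0.16. RPP21 was carried by HGLibA_42025 (−1.21 ± 0.16) and HGLibB_41973 (−0.98 ± 0.20). For RPP38, 5 of 6 guides were below 0 and the lowest stood at −0.51, a smaller value than those; its one called guide was HGLibA_42038 (−0.40 ± 0.10, adjusted p = 0.0239).

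RPP30 showed how a sum can hide a guide. Its guide HGLibA_42034 stood at 5.12, 3.74 and 5.10 CPM in DMSO, against 9.19, 10.7 and 9.65 CPM at T0, a change of −1.07 ± 0.13 (adjusted p = 4.49e-08). The other 5 RPP30 guides lay between −0.0022 and 0.32 and were not called. One RPP14 guide, HGLibA_42024, was also called (−0.93 ± 0.26, adjusted p = 0.0404). That call was lost without any one of the 6 libraries, at adjusted p between 0.0513 and 0.273.

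**Figure D2:**
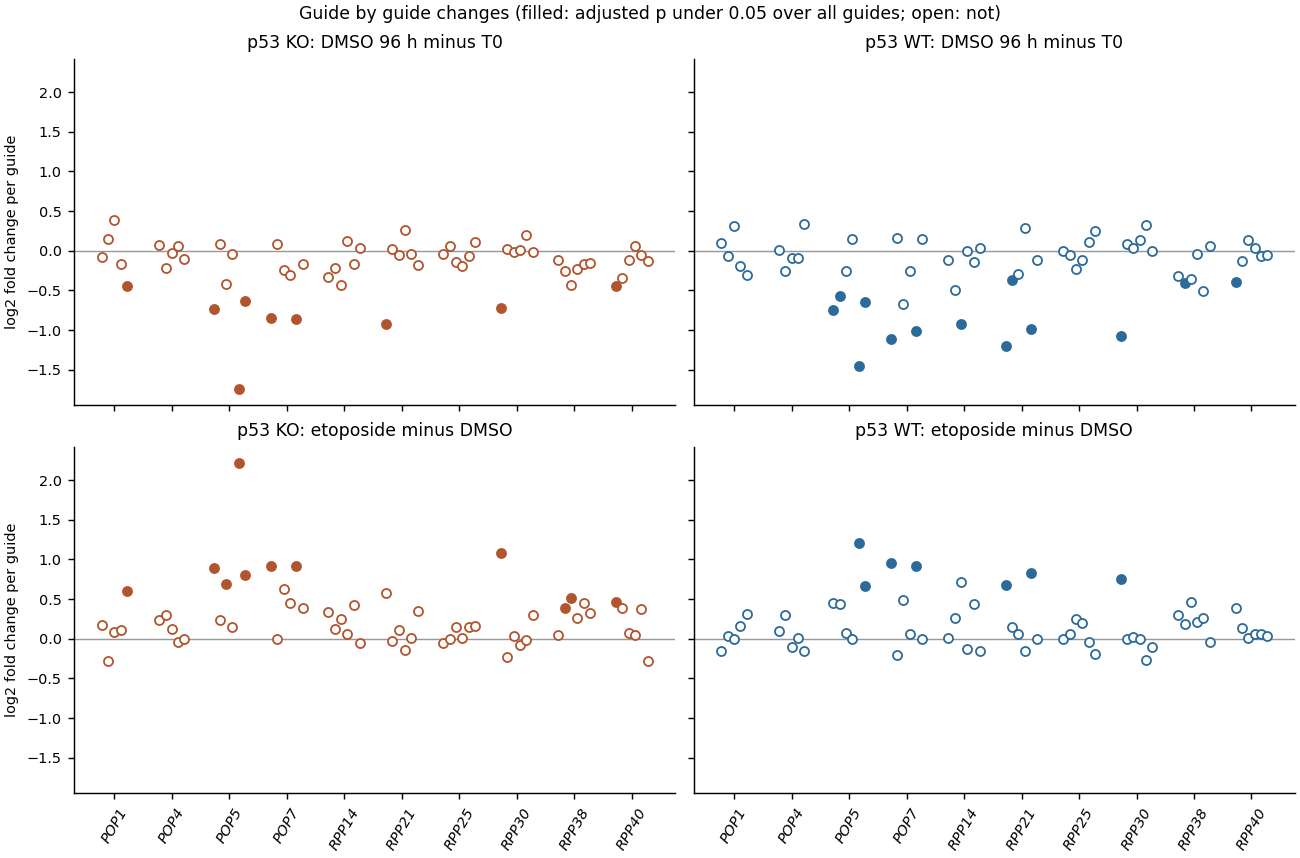
Log2 fold change of each of the 58 guides (vertical axis) by target gene, with p53 KO left and p53 WT right, and DMSO at 96 h minus T0 above etoposide minus DMSO; filled points were called at an adjusted p under 0.05 over all guides. POP5, POP7 and RPP21 each have 2 or more strongly shifted guides in p53 WT cells, RPP30 has 1, and no RPP25 or POP4 guide is filled in any panel.

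The next comparison set p53 WT cells under etoposide against the DMSO cells of the same age. Guides against POP5 and RPP38 were more abundant under etoposide, and those against the other 8 genes did not pass the test, although all 10 fitted values were above 0. These 2 of 10 compare with 1.91% of all genes called higher, and the median over the 10 was 0.11, beside −0.00015 over all genes. As the 2 include POP5, this count too is not fully independent of the choice. This comparison shares its DMSO libraries with the one above.

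POP5 guides summed to 41.6, 40.4 and 45.5 CPM under etoposide, against 32.7, 35.8 and 30.5 CPM in DMSO. Every etoposide library was above every DMSO library (0.37 ± 0.06, adjusted p = 4.1e-06). RPP38 guides summed to 48.4, 48.9 and 47.8 CPM under etoposide, against 42.9, 38.7 and 43.3 CPM in DMSO, also apart (0.22 ± 0.06, adjusted p = 0.0133). The RPP38 call was lost without DMSO library B (0.17, adjusted p = 0.161) or etoposide library B (0.21, 0.0759). RPP21 (0.16 ± 0.05, adjusted p = 0.123), RPP40 (0.14 ± 0.05, 0.128), POP7 (0.13 ± 0.06, 0.314) and POP1 (0.10 ± 0.05, 0.415) had groups apart without passing the test. RPP21 passed without DMSO library C (0.20, adjusted p = 0.0479). With each guide weighted alike, as a mean over guides of log2 CPM tested by limma, POP7 (0.37, adjusted p = 9.39e-05) and RPP21 (0.26, 0.00383) were called, which made 4 members. Scaling to non-targeting guides called RPP21 and RPP40, again 4 members, with all genes split into 962 higher and 17 lower, beside 363 higher and 56 lower.

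Of the 58 guides, 7 were called higher and 0 lower, beside 0.341% of all guides called higher. The called guides were 2 each of POP5, POP7 and RPP21 and 1 of RPP30. POP5 guide HGLibB_37644 stood at 3.22, 3.36 and 3.88 CPM under etoposide, against 1.70, 1.40 and 1.40 CPM in DMSO (1.21 ± 0.21, adjusted p = 0.000288). The POP7 guides HGLibA_37695 (0.96 ± 0.18) and HGLibB_37647 (0.92 ± 0.21) were more abundant than in DMSO, as was RPP30 guide HGLibA_42034 (0.75 ± 0.14, adjusted p = 0.000633). The calls of HGLibB_37647 and of both RPP21 guides were each lost when some single library was left out, at adjusted p between 0.0537 and 0.295, and the other 4 were kept in each such fit.

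Against T0, p53 WT cells under etoposide showed little change in these guides. Only RPP21 was called, beside 0.788% of all genes called lower. Its guides summed to 45.5, 45.8 and 43.9 CPM under etoposide, against 51.8, 50.7 and 53.1 CPM at T0 (−0.20 ± 0.05, adjusted p = 0.0415), and all etoposide libraries were below all T0 libraries. That call was lost without any one of the 6 libraries compared, at values between −0.22 and −0.18 and adjusted p between 0.0955 and 0.274. POP5 stood at −0.09 ± 0.06 (adjusted p = 0.716), with overlapping groups. By edgeR's test 0 of the 58 guides were called, beside 0.101% of all guides, and 6 had an unadjusted p under 0.05; no other tool was run on single guides.

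The p53 KO libraries are described only, since the genes were chosen on values from them. During growth in DMSO the values were −0.44 ± 0.06 for POP5, −0.25 ± 0.06 for POP7, −0.24 ± 0.06 for RPP38, −0.21 ± 0.05 for RPP40 and −0.12 ± 0.05 for RPP21. The first 4 of these were past the threshold of the fit, beside 3.09% of all genes called lower, a count that rests on the selecting values and supports nothing. The split of all genes was 80 higher and 588 lower, or 14 higher and 1531 lower on the non-targeting basis. POP5 guides summed to 37.1, 37.8 and 35.2 CPM in p53 KO DMSO libraries, against 48.9, 49.3 and 51.0 CPM at T0, without overlap. POP7 guides summed to 34.2, 36.1 and 35.6 CPM in DMSO, against 40.1, 43.3 and 42.6 CPM at T0, and RPP40 guides to 56.0, 61.4 and 57.01 CPM in DMSO, against 66.3, 68.3 and 66.9 CPM at T0. Neither of these overlapped.

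Under etoposide the p53 KO libraries held more guides against every member than the DMSO libraries did in the fit, with a median of 0.16. Past the threshold were 4 of 10, beside 3.05% of all genes called higher, and as POP5 was chosen on this comparison nothing is read from that count. All genes split into 581 higher and 225 lower (828 higher and 111 lower on the non-targeting basis). POP5 guides summed to 57.2, 59.5 and 57.8 CPM under etoposide, against 37.1, 37.8 and 35.2 CPM in DMSO (0.66 ± 0.06). POP7 guides summed to 46.9, 45.0 and 46.1 CPM under etoposide, against 34.2, 36.1 and 35.6 CPM in DMSO (0.38 ± 0.06). RPP38 (0.35 ± 0.06) and RPP40 (0.24 ± 0.05) followed, with groups apart in both. RPP14, at 0.16 ± 0.06 with overlapping groups, stood at 0.26 without DMSO library C. Against T0, the etoposide value of POP5 was 0.22 ± 0.06, the one member past the threshold, beside 0.378% of all genes called higher. As POP5 was chosen on values from these etoposide libraries, nothing is read from that either. All genes split into 72 higher and 142 lower, or 33 higher and 296 lower on the non-targeting basis. POP5 was no longer past the threshold when KO etoposide library B or C, or KO T0 library A or B, was left out.

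Guide by guide, the p53 KO libraries had 9 guides past the threshold in growth, beside 0.555% of all guides called lower, and 11 under etoposide, beside 0.632% called higher. POP5, on which the choice rested, supplied 3 of the 9 and 4 of the 11, and nothing is read from these counts. POP5 guide HGLibB_37644 stood at 7.51, 5.46 and 6.53 CPM under etoposide, 1.57, 1.36 and 1.27 CPM in DMSO and 4.13, 5.12 and 4.80 CPM at T0. Its etoposide libraries were above, and its DMSO libraries below, every T0 library. The value was −1.75 ± 0.21 for growth and 2.22 ± 0.21 for etoposide. RPP30 guide HGLibA_42034 again stood apart from the other RPP30 guides, at −0.72 ± 0.13 for growth and 1.08 ± 0.13 for etoposide. A POP1 guide, HGLibB_37639, had −0.45 ± 0.11 and 0.61 ± 0.11, whereas RPP21 guide HGLibB_41973, strongly lost in p53 WT cells, had −0.04 and 0.01.

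The p53 KO and p53 WT comparisons have no library in common. Over the 58 guides the growth changes in p53 KO and p53 WT cells had Pearson's r = 0.81 (Spearman's rho = 0.71), and r was 0.28 over all 109367 guides. For etoposide minus DMSO, r was 0.73 (rho = 0.61) over the 58 guides and 0.14 over all guides. These are descriptions across guides that share targets and an oligo pool, with no test. The group was also taken up through the p53 KO values of POP5 guides, so r over the 58 guides is not independent of that choice. Its height beside r over all guides is therefore not read as a result.

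**Figure D3:**
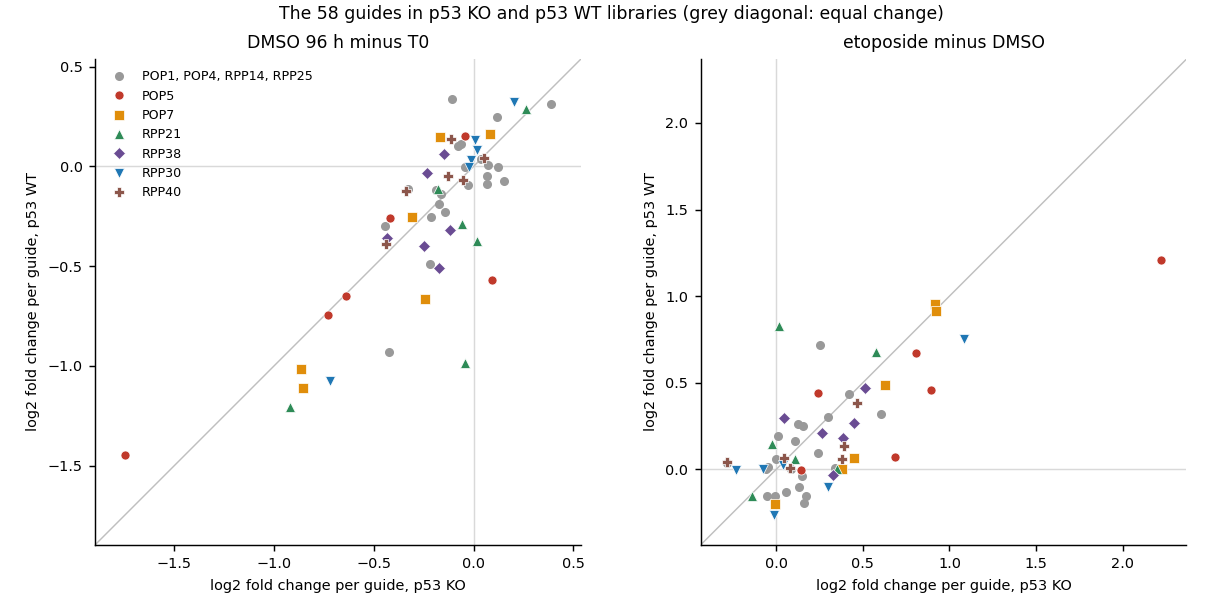
Log2 fold change of the 58 guides in p53 KO cells (horizontal axis) and p53 WT cells (vertical axis), for DMSO at 96 h minus T0 (left) and etoposide minus DMSO (right); symbols mark the target gene and the grey diagonal equal change. Pearson's r was 0.81 on the left and 0.73 on the right, which does not measure closeness to the diagonal. Far from the diagonal lie an RPP21 guide on the left, at −0.04 in KO and −0.98 in WT, and POP5 guide HGLibB_37644 on the right, at 2.22 in KO and 1.21 in WT. The group was taken up through POP5 values in p53 KO cells, so nothing is read from r.

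The difference between genotypes was also fitted, and as it uses the p53 KO libraries it is a description too. For growth, KO minus WT, RPP21 had the largest member value at 0.25 ± 0.08 and the others lay between −0.12 and 0.02. For etoposide, KO minus WT, POP5 had 0.30 ± 0.08 and POP7 0.25 ± 0.08. edgeR called 0 members in either, beside 0.00525% and 0.0525% of all genes; 1 and 2 members had an unadjusted p under 0.05, and DESeq2 called 0 and 1, and none of these counts is read as a test of the members. At T0, p53 KO minus p53 WT, edgeR called 0 members, beside 4.54% of all genes, with 2 at an unadjusted p under 0.05 and 1 called by DESeq2; RPP40 stood at 0.15 ± 0.05 and POP5 at 0.14 ± 0.06. Scaled to non-targeting guides, 3 members were called at T0, and all genes split into 1910 higher and 159 lower, beside 458 higher and 407 lower.

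Over the 18 libraries, the non-member genes whose summed guides followed those of POP5 most closely were HNRNPL, a splicing regulator (Pearson's r = 0.96), NOP14, a factor of small ribosomal subunit assembly (0.96), PELO, a ribosome rescue factor (0.95), PGAM1, a glycolytic enzyme (0.95), and SPATA5, an ATPase of large ribosomal subunit maturation (0.94), out of 19034 genes searched. Among members, r with POP5 was 0.90 for POP7, 0.88 for RPP38, 0.82 for RPP40, 0.79 for POP4, 0.72 for RPP21, 0.60 for RPP30 and RPP14, 0.58 for POP1 and 0.0061 for RPP25. The 18 libraries include the p53 KO libraries, on whose POP5 values the group was chosen. Shifts between groups, given above, also enter r, and they were not separated from the spread within groups. The non-member genes named are the highest of 19034 searched. All these r values are thus a description without a test, and nothing is read from their height. RPP25 has a paralog, RPP25L. Guides against RPP25L were called lower in p53 WT growth (−0.24 ± 0.07, adjusted p = 0.0231), and their etoposide value of 0.23 ± 0.07 was not called (adjusted p = 0.076).

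Neighbouring RNA processing pathways were read from lists of genes, chosen with earlier results of these data known. Counts of called list genes, here and below, are therefore a description and no independent support for a pathway. In p53 WT growth, 2 of the 3 tested entries for the protein-only mitochondrial RNase P were called lower, HSD17B10 (−0.41 ± 0.05, adjusted p = 9.26e-11) and TRMT10C, its methyltransferase (−0.25 ± 0.05, 0.000147). The remaining entry stood at 0.03 and was not called. Of 18 names in tRNA end processing and splicing, 6 were lower. They were led by TRNT1, which adds the CCA end (−0.47 ± 0.07, adjusted p = 3.78e-08), ZBTB8OS, of the tRNA ligase complex (−0.35 ± 0.06, 6.05e-06), and TSEN54, of the splicing endonuclease (−0.28 ± 0.06, 0.00028). The ligase RTCB is listed under both its names: the entry C22orf28 was called and the entry RTCB was not. Of 16 genes of ribosomal spacer processing, 5 were lower, led by PDCD11 (−0.29 ± 0.06, adjusted p = 7.27e-05), PES1 (−0.29 ± 0.06, 0.00014) and FCF1 (−0.22 ± 0.06, 0.00415). These counts stand beside 5.4% of all genes called lower. The list medians were −0.25, −0.10 and −0.13, beside 0.0048 over all genes.

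Under etoposide against DMSO in p53 WT cells, 2 of 3, 4 of 18 and 3 of 16 entries of these lists were called higher and 0 lower, beside 1.91% of all genes called higher. The 4 again include C22orf28 and not RTCB. HSD17B10 (0.35 ± 0.05, adjusted p = 9.7e-08), ZBTB8OS (0.29 ± 0.06, 0.000467) and PES1 (0.25 ± 0.06, 0.00337) had the smallest p in each list.

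The transcripts of the members were then read in the conditioned-medium recipients, all p53 WT. Per length, in TPM, counts scaled by the gene lengths in the deposited table and by library, POP7 led with a mean of 149 TPM over the 10 libraries, followed by POP4 (55.4), POP5 (45.8), RPP38 (36.0), RPP14 (21.3), RPP40 (17.7), RPP30 (17.6), POP1 (14.6), RPP21 (2.88) and RPP25 (1.30). The ranges over libraries overlapped between POP4 and POP5, POP5 and RPP38, RPP14 and RPP40, RPP40 and RPP30, RPP30 and POP1, and RPP21 and RPP25. RPP25L, the paralog, stood at 44.0 TPM. RPPH1 and RMRP, the enzymes' own RNAs, stood at 4.23 and 5.88 TPM on 6 to 17 and 4 to 35 raw counts per library. Both are short, at 341 and 268 bases, and how well these libraries captured such RNAs was not tested. Their TPM is therefore not read as their abundance beside the transcripts of the proteins. RPP21 had 7 to 20 and RPP25 13 to 35 raw counts per library, which limits both. RPP21 overlaps the readthrough gene TRIM39-RPP21, RPP14 overlaps HTD2, and RPP40 overlaps LYRM4-AS1; whether reads were counted by strand is not given in the sources used here, so their values are uncertain. In these samples fewer cells of a kind and less RNA per cell cannot be told apart.

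Medium from etoposide-treated donors, against medium from DMSO-treated donors, moved few of these transcripts. With p53 WT donors, POP1 alone was called higher, beside 16.1% of all 15391 tested transcripts called higher, and with p53 KO donors POP1 and RPP40 were, beside 18.8%. The members' shares of 1 and 2 in 10 are near these backgrounds and are not a result about the members. With p53 WT donors all 10 fitted values were above 0 (median 0.15, beside 0.013 over all transcripts), and with p53 KO donors 6 were (median 0.08, beside −0.011).

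POP1 had 30.6 and 32.2 CPM in medium of etoposide-treated p53 WT donors, against 27.3 and 23.3 CPM in medium of DMSO-treated p53 WT donors. The groups were apart by 0.31 ± 0.11 (adjusted p = 0.0291). The call was lost with DESeq2 (adjusted p = 0.0539) and without DMSO library B (0.20, 0.276), etoposide library A (0.36, 0.0624) or etoposide library B (0.29, 0.134). With p53 KO donors POP1 had 36.2 and 33.9 CPM after etoposide, against 26.2 and 32.0 CPM after DMSO (0.27 ± 0.10, adjusted p = 0.0497). That call was lost with RLE normalization (adjusted p = 0.0531), DESeq2 (0.102), no filter on low counts (0.0531), only the libraries compared (0.109), the replicate block (0.0537), and without DMSO library A (0.13, 0.357), etoposide library A (0.21, 0.27) or etoposide library B (0.31, 0.0862). RPP40 had 9.58 and 11.4 CPM in medium of etoposide-treated p53 KO donors, against 7.25 and 7.51 CPM after DMSO, without overlap (0.51 ± 0.15, adjusted p = 0.011). It was lost without etoposide library B (0.37, adjusted p = 0.132). Transcripts of POP7 (−0.21 ± 0.10, adjusted p = 0.0964) and RPP14 (0.22 ± 0.10, 0.0767) were not called with p53 KO donors, but POP7 passed without DMSO library A (−0.31, 0.00909) or etoposide library B (−0.36, 0.0243) and RPP14 without etoposide library B (0.34, 0.0248).

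Donor genotype called 0 members. For p53 KO against p53 WT donors after etoposide, edgeR called 0 of 10, beside 14.1% of all transcripts, with 0 at an unadjusted p under 0.05 and 0 by DESeq2. After DMSO it called 0, beside 1.56%, with 1 at an unadjusted p under 0.05 and 0 by DESeq2; without p53 KO DMSO library A, POP1 (0.34, adjusted p = 0.0237) and POP7 (0.31, 0.0178) passed. The difference of the etoposide effects, KO minus WT donors, had 0 called, beside 2.12%, 1 at an unadjusted p under 0.05 and 0 by DESeq2; POP7 stood at −0.30 ± 0.14 and passed without p53 KO DMSO library A (−0.40, adjusted p = 0.031).

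Against T0, which also lacks the 8 h in conditioned medium, POP7, POP1, RPP14, RPP38 and RPP40 were higher and RPP25 and POP4 lower in at least 1 medium. Members called numbered 6 of 10 with etoposide medium of p53 KO donors, beside 46.6% of all transcripts, 4 with etoposide medium of p53 WT donors, beside 41%, 3 with DMSO medium of p53 KO donors, beside 36.8%, and 1 with DMSO medium of p53 WT donors, beside 35.4%. The 4 comparisons share the T0 libraries, and many transcripts moved in each, so these counts are no result about the members.

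POP7 had 51.8 and 62.8 CPM with etoposide medium of p53 KO donors, 61.3 and 71.2 CPM with their DMSO medium, 57.3 and 64.7 CPM with etoposide medium of p53 WT donors, 57.3 and 57.3 CPM with their DMSO medium, and 45.8 and 45.8 CPM at T0. All 8 medium libraries were above both T0 libraries. The changes were 0.32, 0.53, 0.41 and 0.32 in that order, each ± 0.10 (adjusted p = 0.0119, 0.000334, 0.00251 and 0.0154). The first was lost without p53 KO etoposide library B (0.18, adjusted p = 0.21), T0 library A (0.32, 0.0658) or T0 library B (0.32, 0.0658). The last was lost without any one of its 4 libraries, at adjusted p between 0.0721 and 0.085.

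RPP25 had 0.84 and 0.67 CPM with DMSO medium of p53 KO donors, against 1.85 and 1.72 CPM at T0 (−1.24 ± 0.33, adjusted p = 0.00626), on 16 and 13 counts against 35 and 32. With etoposide medium of p53 KO donors it stood at −0.77 ± 0.31 (adjusted p = 0.0465), a call lost without any one of its 4 libraries, with DESeq2 (adjusted p = 0.188), without the filter (0.0541) and with the replicate block (0.0524). POP1 had 36.2 and 33.9 CPM with etoposide medium of p53 KO donors, against 23.1 and 24.2 CPM at T0 (0.57 ± 0.11, adjusted p = 0.000242), and RPP14 had 39.1 and 32.9 CPM, against 25.0 and 27.9 CPM at T0 (0.44 ± 0.10, 0.00104). Both were kept whichever library was left out. Other calls against T0 rested on single libraries. With etoposide medium of p53 WT donors, POP1 (0.41, adjusted p = 0.00483) was lost without T0 library A (0.38, 0.0537), and so was RPP14 (0.36, adjusted p = 0.00669; 0.28, 0.103 without it). RPP38 in that medium (0.25, adjusted p = 0.0403) was lost without T0 library A (0.0788), T0 library B (0.235) or etoposide library B (0.24), with DESeq2 (0.104) and without the filter (0.0917). With etoposide medium of p53 KO donors, RPP40 (0.40, adjusted p = 0.0341) was lost without etoposide library B (0.27, 0.252) or T0 library B (0.24, 0.307) and with DESeq2 (0.0853), and POP4 (−0.20, adjusted p = 0.0466) was lost without any one of its 4 libraries, at adjusted p between 0.07 and 0.289, and also with the replicate block (0.053), RLE normalization (0.0601), DESeq2 (0.101) and no filter (0.0754). With DMSO medium of p53 KO donors, POP1 (0.30, adjusted p = 0.0357) was lost without DMSO library B (0.15, 0.327), T0 library A (0.27, 0.183) or T0 library B (0.33, 0.0978), with DESeq2 (0.0598) and with only the libraries compared (0.0907). Over the RNA comparisons 17 member calls were made, and 5 were kept in every fit that left out 1 library: POP7 in 2 media, RPP25 in 1, and POP1 and RPP14 in 1 each. The paralog RPP25L was higher than T0 in all 4 media, by 0.54 ± 0.12, 0.44 ± 0.12, 0.74 ± 0.12 and 0.39 ± 0.12 in the order used for POP7, with adjusted p at most 0.0169.

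**Figure D4:**
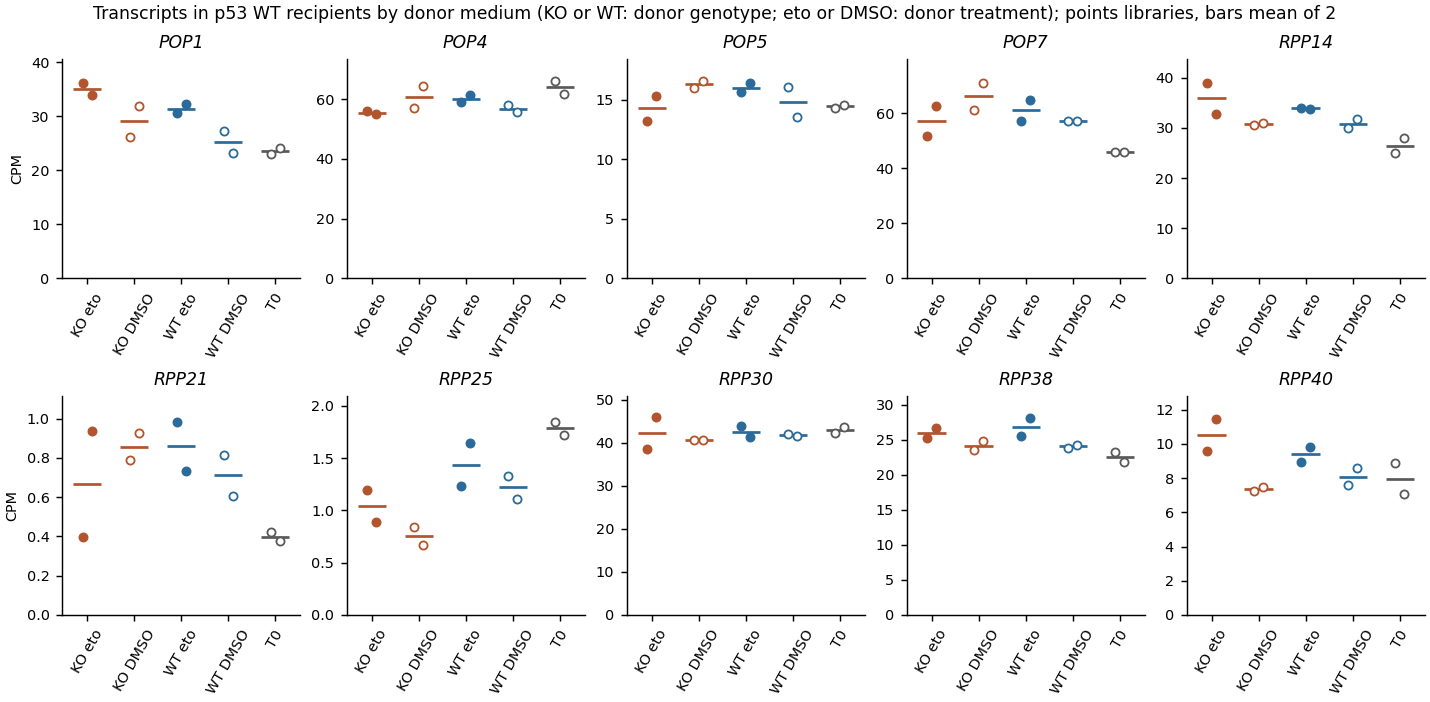
Transcript levels of the 10 members in CPM (vertical axis, from 0) in p53 WT recipients, by medium from p53 KO donors (orange) and p53 WT donors (blue), after etoposide (filled) or DMSO (open), and at T0 (grey); points are libraries and bars the mean of 2. POP7 lies above T0 in all 8 medium libraries, RPP25 below T0, and the POP5 libraries span 13.2 to 16.6 CPM.

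Sequences upstream of POP7, RPP25 and RPP40 are shown, as examples of genes with a transcript called against T0 or between media. Each is the 250 bases before the start of the gene in RefSeq (GRCh38.p14), read 5′ to 3′ on the gene's strand. Both RPP40 calls were lost when some single library was left out, and RPP25 rests on few counts. Not shown are POP1 and RPP14, each with a call against T0 kept in every such fit. Capitals mark matches on either strand to the E-box CACGTG, the GC box GGGCGG or the CCAAT box CCAAT.
POP7, chr7:100705871-100706120, plus strand: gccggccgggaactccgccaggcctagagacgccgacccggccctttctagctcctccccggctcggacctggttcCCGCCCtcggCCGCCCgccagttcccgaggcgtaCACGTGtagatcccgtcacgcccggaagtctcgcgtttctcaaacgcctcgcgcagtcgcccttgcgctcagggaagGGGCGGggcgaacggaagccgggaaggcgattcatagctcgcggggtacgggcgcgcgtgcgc
RPP25, chr15:74956773-74957022, minus strand: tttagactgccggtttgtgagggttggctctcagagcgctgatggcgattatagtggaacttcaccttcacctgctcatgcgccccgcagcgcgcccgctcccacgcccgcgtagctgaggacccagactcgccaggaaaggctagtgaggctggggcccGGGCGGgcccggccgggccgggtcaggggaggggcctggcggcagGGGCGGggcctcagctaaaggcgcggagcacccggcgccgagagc
RPP40, chr6:5004038-5004287, minus strand: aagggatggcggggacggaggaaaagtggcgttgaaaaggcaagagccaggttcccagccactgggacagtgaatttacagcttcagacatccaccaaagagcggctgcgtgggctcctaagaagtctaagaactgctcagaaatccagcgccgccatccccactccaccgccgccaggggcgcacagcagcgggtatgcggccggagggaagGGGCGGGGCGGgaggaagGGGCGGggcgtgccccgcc
The promoter table matched 9 of the 10 members by symbol. The POP7 window holds the E-box once and the GC box 3 times, the RPP25 window the GC box 2 times, and the RPP40 window the GC box 3 times, a pair of which overlap by a base; none of these windows holds the CCAAT box. Over the 9 members 1 window holds the E-box, 7 the GC box and 4 the CCAAT box, beside 6.34%, 42.6% and 32% of all 35116 windows in the table. A match says only that the letters are there.

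Transcripts of the list genes were read in the same way. With etoposide against DMSO medium of p53 WT donors, TRMT10C rose (0.51 ± 0.12, adjusted p = 0.00229), the mitochondrial nuclease KIAA0391 fell (−0.35 ± 0.11, 0.0192), 3 of 16 tRNA genes rose and 1 fell, and 2 of 14 ribosomal spacer genes rose and 1 fell, led by RCL1 (0.61 ± 0.12, 0.00049). With p53 KO donors TRMT10C rose (0.55 ± 0.12, adjusted p = 0.00094), 3 of 16 tRNA genes rose and 2 fell, and 5 of 14 ribosomal spacer genes rose and 2 fell, led by ISG20L2 (0.52 ± 0.08, 3.16e-05). TSEN15, a splicing endonuclease subunit, fell with both donors (−0.35 ± 0.10, adjusted p = 0.0104, with p53 KO donors and −0.45 ± 0.10, 0.00213, with p53 WT donors). As 37.2% of all transcripts were called in either direction with p53 KO donors and 34.6% with p53 WT donors, these counts are no result about the pathways.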

How the data were processed

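The guide counts and the RNA read counts per gene were used as the authors deposited them, as raw counts. Per the submitters' processing notes, Bowtie2 and DESeq2 were used for the screen and DESeq2 and the hg19 build for RNA-seq; the sources used here give no versions, RNA aligner, annotation, strand setting or name of the guide library. Screen libraries held 30437296 to 48230735 and RNA libraries 16825669 to 20290764 counts.

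Guide counts were summed per gene for the 19044 genes with at least 3 guides, leaving out 6 genes with fewer, and also fitted singly for 109367 guides. RNA was fitted for the 15391 of 25807 symbols that passed filterByExpr. Each fit used edgeR 4.0.16 (R 4.3.3), TMM normalization, all libraries of the assay (18 or 10) and the quasi-likelihood test, with 12 (screen) or 5 (RNA) residual degrees of freedom and Benjamini-Hochberg adjustment over all features of the fit; the SE is the log2 fold change divided by the square root of its F statistic. CPM used TMM-scaled library sizes, and TPM used the gene lengths in the deposited RNA table. The fitting code was run on simulated negative binomial counts with the same dispersion for every feature. That checks the code only and gives no support to the calls. Alternatives used RLE normalization, scaling to 999 non-targeting guides, DESeq2 1.42.0, limma 3.58.1 on log2 CPM (prior count 2), other low-count filters, only the libraries compared, a replicate block, and leaving out each library.

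The members and gene lists were chosen with earlier results of these data known. For the members, the results that led to the choice were the POP5 values in p53 KO growth and etoposide, as stated at the start. All 10 members are named; of each list, the called genes, up to 3 with the smallest p, in a contrast with a test; and the 5 genes whose guides followed POP5 most closely. Guide sequences were not used here.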

Additional observations from a re-analysis of the deposited data

How the results depend on the processing

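Of the settings tried, none reversed a called value. The number of members called with p53 WT cells in growth (4) was 7 when libraries were scaled to non-targeting guides. It was 5 with limma on the mean over guides, where RPP14 was added, and 3 to 4 when a library was left out. For p53 WT etoposide against DMSO (2) it was 4 with that scaling, 4 with limma on the mean over guides, and 1 to 3 with a library left out. For p53 WT etoposide against T0 (1) it was 0 with limma and 0 with any library left out, and for p53 KO etoposide against T0 (1) it was 0 to 1 with a library left out. For p53 KO against p53 WT at T0 (0) it was 3 with non-targeting scaling, 1 with DESeq2, 2 with only the libraries compared and 1 with the replicate block. For the etoposide difference of KO minus WT (0) it was 1 with DESeq2. Member guides called in p53 WT growth (13) numbered 8 to 11 with a library left out, and the guide called at T0 (1) was lost each time (0).

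In RNA, etoposide against DMSO medium of p53 KO donors (2 members) gave 1 with RLE, DESeq2, no filter, only the libraries compared or the replicate block, and 1 to 2 with a library left out; with p53 WT donors (1) it gave 0 with DESeq2 and 0 to 1 with a library left out. p53 KO against p53 WT donors after DMSO (0) gave 0 to 2 with a library left out, and the difference of etoposide effects (0) gave 0 to 1. Against T0, etoposide medium of p53 KO donors (6) gave 3 with DESeq2, 2 to 4 with a library left out and 4 with the replicate block; DMSO medium of p53 WT donors (1) gave 3 with only the libraries compared and 0 with any library left out; etoposide medium of p53 WT donors (4) gave 1 to 4. For p53 KO against p53 WT donors after DMSO, all transcripts split into 122 higher and 118 lower with edgeR, and 245 higher and 136 lower with DESeq2. The cause of these shifts was not tested.

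Libraries of different groups share replicate letters, but same-letter libraries did not deviate together: the median correlation of deviations from group means was 0.015 over 45 screen pairs (−0.046 to 0.172) and 0.0094 over 20 RNA pairs (−0.037 to 0.103). With the replicate block, member guides called in p53 WT growth numbered 14. Few libraries per group and low RNA counts of RPP21 and RPP25 limit what could be detected.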
